A study of Mus musculus with 24 samples.

Results

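The comparison described here is between mouse fibroblasts in which the kinase Fv2E-PERK had been switched on for 8 h and untreated cells of the same line. It rests on 4 of the 24 arrays of the series: 2 untreated arrays and 2 arrays after 8 h of AP20187, chosen by cell line, drug and time and not by any measured value. The line, called SS, expresses the Fv2E-PERK transgene, has wild-type eIF2alpha and lacks the cell's own PERK (PERK-/-). According to the labels, that background was chosen because clones with high transgene expression could not be obtained from wild-type cells, so both treated and untreated SS cells lack endogenous PERK. The dose of AP20187 is written in the labels as 2 nm. A further 2 arrays of the SS line after 4 h of the same dose were used for timing. The AA line, which expresses Fv2E-PERK and carries a mutant eIF2alpha, was compared with 2 untreated arrays and 2 arrays after 8 h of the same dose, and its 2 arrays at 4 h entered the fit only. Whether AA cells also lack PERK is not stated in the labels. Each line is a single line. The labels do not tell whether the 2 samples of a group were grown as separate cultures. The p-values therefore reflect no more than the differences between samples of a group, pooled over the 6 groups of Fv2E-PERK arrays, AA included. These differences could be technical.

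PERK is a kinase of the endoplasmic reticulum (ER) membrane that pairs up and becomes active when unfolded proteins accumulate in the ER. It phosphorylates the translation initiation factor eIF2alpha, which lowers protein synthesis in general but raises translation of certain messages, among them that of the transcription factor ATF4. ATF4 and its partners then induce genes of amino acid supply, tRNA charging, redox balance and feedback control, a programme known as the integrated stress response. In Fv2E-PERK the kinase part is fused to a domain that AP20187 pulls together, so that the kinase is activated without unfolded protein in the ER. The AA mutant is used in such work because the site that PERK phosphorylates on eIF2alpha is lost.

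Each value in the deposited table is a linear ratio, scaled so that nearly every probe set has a median close to 1 over the 24 arrays, so values of different probe sets cannot be set against each other, and whether the cells are fibroblasts cannot be read from marker levels. Changes were tested with limma on log2(ratio + 0.247), and a probe set is called when its adjusted p (Benjamini-Hochberg over 12384 probe sets) is under 0.05. A fold value divides the mean deposited ratio of one group by that of the other. Log2 changes carry a standard error (SE, n = 2 arrays per group), with the spread pooled over the 12 arrays fitted. The log2 changes include the 0.247, so they are too small for probe sets with low ratios. Replicate arrays correlated over the tested probe sets with r = 0.823 (untreated SS), 0.852 (SS 4 h) and 0.854 (SS 8 h), and with r = 0.790 (untreated AA) and 0.690 (AA 8 h), the lowest of the 6 groups. Over all probe sets the untreated SS arrays had median ratios of 1.11 and 1.17, and the SS 8 h arrays 1.16 and 1.22. The probe set for Eif2ak3, the gene of PERK, read 0.791 and 0.466 in untreated SS cells and 0.527 and 0.603 at 8 h, while it read 1.61 and 1.20 in untreated AA cells. Where this probe set lies within the disrupted gene and the transgene is not known here, and it does not check the PERK-/- label.

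After 8 h of AP20187, 610 probe sets were called higher and 326 lower, which is 4.93% and 2.63% of those tested and 7.56% together. The calls covered 528 named genes that rose and 276 that fell, and 315 of the rises and 188 of the falls were larger than 1 on the log2 scale. The median log2 change over all tested probe sets was 0.04. In all 936 called probe sets both arrays of the higher group lay above both arrays of the other, which held for 51.6% of all probe sets tested. With 1 array left out the count of calls was 336 (without untreated replicate 1), 447 (without untreated replicate 2), 383 (without 8 h replicate 1) or 164 (without 8 h replicate 2), and a fit of only the 4 compared arrays gave 0 calls, with 2281 probe sets at an unadjusted p under 0.05.

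**Figure D1:**
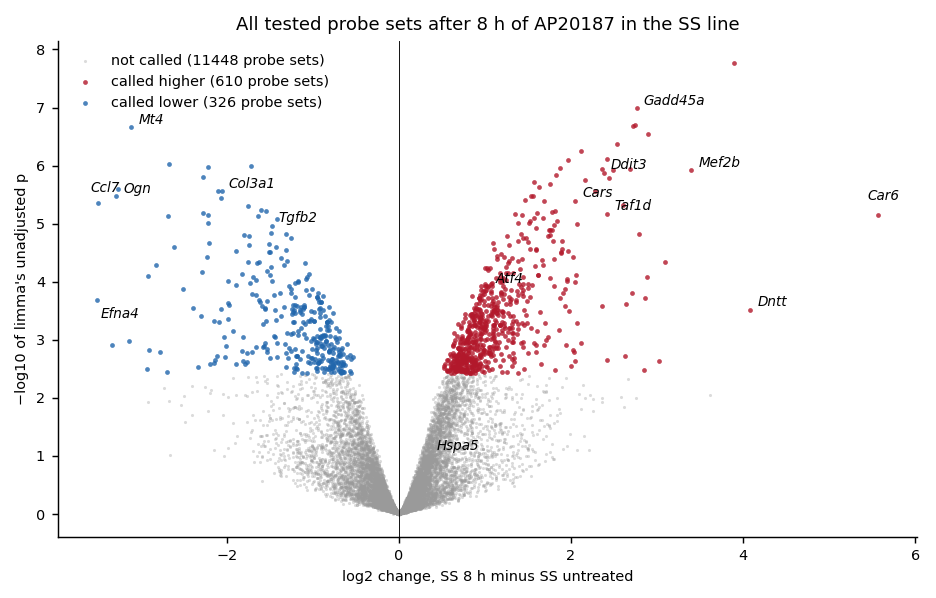
Each point is a tested probe set, with its log2 change between untreated and 8 h arrays of the SS line on the x axis and the −log10 of limma's unadjusted p on the y axis. Red points are the 610 probe sets called higher and blue points the 326 called lower; Car6 lies farthest to the right, and Ccl7 and Efna4 farthest to the left.

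The largest rise was that of Car6, which encodes a secreted carbonic anhydrase. Its ratio was 4.78 and 0.990 in untreated cells, 12.9 and 11.9 at 4 h and 97.2 and 143 at 8 h. The 8 h arrays lay far above the other 4, and the change was 41.7-fold, or 5.57 ± 0.57 on the log2 scale (limma adjusted p = 0.00171). Dntt, the template-independent DNA polymerase of lymphocyte precursors, read 0.724 and 0.735, then 1.04 and 0.960, then 17.1 and 15.5 at 8 h. The 22.3-fold rise of Dntt (adjusted p = 0.0124) was lost whichever of the 4 arrays was left out, and its other 2 probe sets changed by 0.92 and 1.23 without being called. Mef2b, a MADS-box transcription factor, went from 2.29 and 3.17 to 25.7 and 36.8, an 11.4-fold rise (adjusted p = 0.000828) that held whichever of the 4 arrays was left out and was called on its other probe set too. Itpr2, a calcium release channel of the ER, went from 0.636 and 0.508 to 4.12 and 4.90 on the probe set with the tighter arrays, a change of 2.54 ± 0.18 (adjusted p = 0.000738). Itpr2 was called on 2 of its 4 probe sets.

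Many of the other leading rises were genes with no fixed place in the stress response. Akap8l, a nuclear scaffold protein, rose from 1.03 and 0.966 to 7.71 and 7.81 (7.76-fold, adjusted p = 0.000828). Madcam1, a vascular adhesion molecule, rose from 0.345 and 0.363 to 2.52 and 3.61 (8.65-fold, adjusted p = 0.000916). Tfcp2l1, a transcription factor of epithelial and embryonic cells, rose from 0.392 and 0.495 to 3.50 and 4.40 (8.91-fold, adjusted p = 0.00151), although its other probe set changed by only 0.18. These 3 calls held whichever of the 4 arrays was left out. The calls of Cox6a2 and Mb, a muscle respiratory subunit and myoglobin, were less steady. Cox6a2 read 10.8 and 14.6 before and 77.5 and 108 after (adjusted p = 0.0464), and its call was lost without any 1 of the 4 arrays. Mb read 1.28 and 0.622 before and 5.21 and 9.15 after (adjusted p = 0.0114), and its call was lost without untreated replicate 2 or without 8 h replicate 2; its other probe set changed by -0.35.

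Most stress-induced transcription factors rose. Of 16 tested, 9 rose, 1 fell and 6 were not called, with a median log2 change of 1.09 beside 0.04 over all probe sets. Ddit3, which encodes the pro-apoptotic factor CHOP, read 0.737 and 0.823 in untreated cells, 3.10 and 3.83 at 4 h and 4.94 and 5.23 at 8 h. The 3 groups of arrays did not overlap, and the change at 8 h was 6.52-fold, 2.38 ± 0.20 (limma adjusted p = 0.000862). Atf3, a repressor and activator induced by many stresses, read 1.26 and 1.27, then 7.53 and 8.21, then 4.25 and 4.94. Its 8 h arrays lay above the untreated and below the 4 h arrays, and the change from untreated was 3.63-fold (adjusted p = 0.00181). A second Atf3 probe set rose 5.98-fold, from 3.14 and 2.71 to 16.1 and 18.9, and the remaining probe set changed by 0.05 and was not called.

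Atf4 mRNA itself rose less, from 1.38 and 1.54 to 2.88 and 3.67, which is 2.24-fold (1.04 ± 0.16, adjusted p = 0.00813). The other risers of the group were Egr1, Nupr1, Atf5, Cebpg, Nfil3 and Cebpb. Nupr1, a small chromatin-associated stress protein, rose 4.68-fold, from 0.642 and 0.814 to 2.79 and 4.02. Cebpg, a dimer partner of ATF4, rose 3.06-fold, from 1.25 and 1.47 to 4.11 and 4.23. Cebpb, another C/EBP factor, read 2.67 and 2.08 before and 4.24 and 5.33 after (2.02-fold, adjusted p = 0.0329). The member that fell was Cebpd, which read 3.84 and 6.21 before and 1.64 and 2.42 after (2.48-fold lower, adjusted p = 0.0439). The calls of Cebpb, Cebpd and Nfil3 were lost whichever of the 4 arrays was left out, that of Atf4 was lost only without 8 h replicate 2, and those of Ddit3, Atf3, Egr1, Nupr1 and Cebpg held each time.

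**Figure D2:**
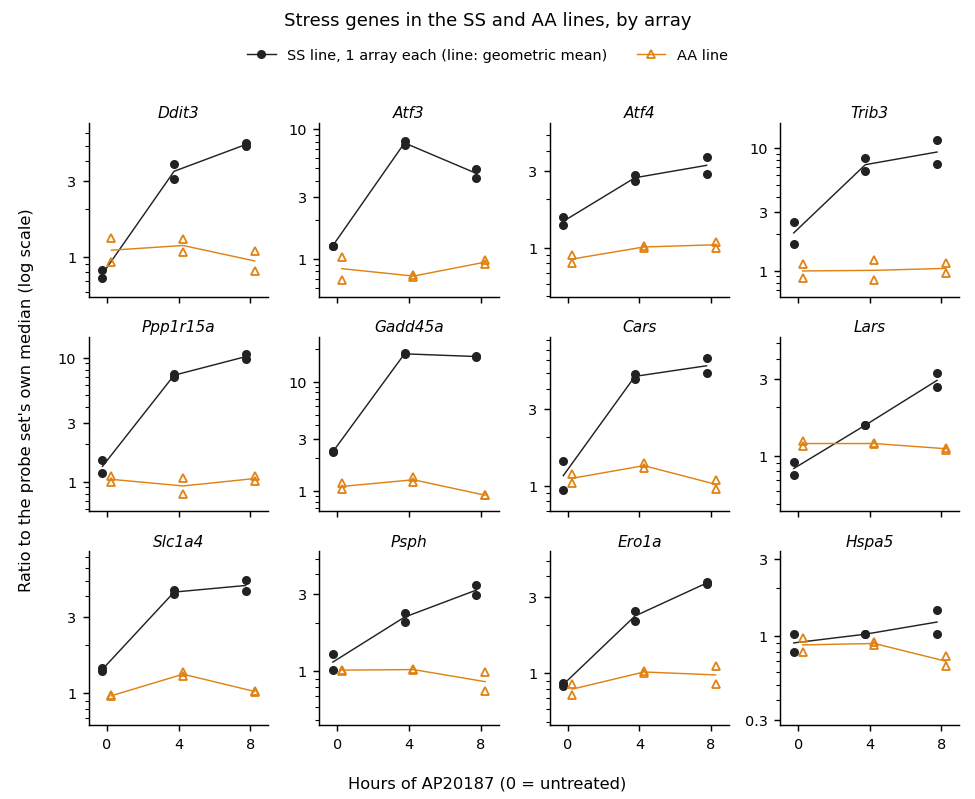
Ratios on each array (log scale) against hours of AP20187 for 12 genes; filled circles are SS arrays, open triangles are AA arrays, and lines join the geometric means of the 2 arrays. In the SS line the 8 h arrays of Ddit3 read 4.94 and 5.23 against 0.737 and 0.823 before, while Hspa5 read 1.04 and 1.44 against 0.801 and 1.03.

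A mixed list of feedback regulators of the pathway and other stress-inducible genes was described as a whole. Of 14 tested, 11 rose, 0 fell and 3 were not called, and the median log2 change was 1.38. Ppp1r15a encodes GADD34, which brings a phosphatase to eIF2alpha and reverses its phosphorylation. It read 1.49 and 1.19 before, 7.02 and 7.41 at 4 h and 9.74 and 10.6 at 8 h, a 7.60-fold rise at 8 h (2.72 ± 0.18, adjusted p = 0.000538). Ppp1r15b, the constitutive counterpart, rose 1.94-fold, from 1.71 and 1.62 to 2.79 and 3.68. Trib3, a pseudokinase that restrains ATF4 and AKT, read 1.66 and 2.49 before and 7.40 and 11.6 after (4.58-fold, adjusted p = 0.00653), and lost its call without 8 h replicate 2.

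Gadd45a, a growth arrest gene, read 2.26 and 2.33 before, 18.2 and 17.7 at 4 h and 17.2 and 16.8 at 8 h. Its arrays at 4 h and 8 h lay close together and far above the untreated ones (7.39-fold at 8 h, adjusted p = 0.000538). Ddit4, an inhibitor of mTORC1 also called REDD1, rose 3.65-fold from 2.22 and 1.58 to 6.35 and 7.48. Eif4ebp1, which blocks the cap-binding factor eIF4E, rose 2.26-fold from 1.40 and 2.10 to 3.56 and 4.37 (adjusted p = 0.0176). Eif4ebp1 kept its call only without untreated replicate 2, whereas Ppp1r15a, Gadd45a and Ddit4 kept theirs without any 1 array. The remaining risers were Vldlr, Gtpbp2, Ndrg1, Cdkn1a and Gadd45b. Of the 11 calls, 6 remained without untreated replicate 1, 7 without untreated replicate 2, 8 without 8 h replicate 1 and 5 without 8 h replicate 2.

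Enzymes that charge tRNAs with amino acids rose broadly. Of the 21 cytosolic synthetase genes and associated factors tested, 16 rose and 0 fell, and the median log2 change was 0.99. Cars, which charges cysteine tRNA, had the largest change, from 0.940 and 1.42 to 5.01 and 6.17 (4.74-fold, 2.05 ± 0.20, adjusted p = 0.00137). Lars, for leucine, read 0.756 and 0.912 before, 1.55 and 1.54 at 4 h and 2.65 and 3.23 at 8 h (3.53-fold, adjusted p = 0.00127). The 3 groups of Lars arrays did not overlap. Tars, for threonine, rose 2.85-fold, from 1.49 and 1.73 to 4.20 and 4.98 (adjusted p = 0.00300).

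The other 13 synthetase genes that rose were Sars, Yars, Eprs, Nars, Aars, Iars, Farsb, Wars, Rars, Gars, Farsa, Hars and Aimp1, a scaffold of the multi-synthetase complex, with changes from 1.61-fold for Aimp1 and Hars to 2.66-fold for Sars. Kars, Mars1, Qars, Vars and Aimp2 were not called. Of the 16 calls, 6 remained without untreated replicate 1, 10 without untreated replicate 2, 8 without 8 h replicate 1 and 3 without 8 h replicate 2, and the list's median log2 change stayed between 0.84 and 1.11 in these 4 fits. Cars, Lars and Tars were the 3 that stayed called each time.

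Amino acid transport and synthesis genes rose in part. Of 17 transporter genes tested, 4 rose and 0 fell, with a median of 0.56. With the probe set of the highest mean taken for each gene, 4 rose and 1 fell. After quantile normalization 1 rose and 0 fell. Slc1a4, a transporter of alanine, serine and cysteine, rose 3.32-fold, from 1.38 and 1.44 to 4.34 and 5.04 (adjusted p = 0.000971). Slc3a2, the heavy chain that pairs with several light-chain exchangers, rose 1.88-fold from 1.32 and 1.84 to 2.80 and 3.14 (adjusted p = 0.0372). Slc1a5 and Slc6a9 rose 2.04-fold and 1.87-fold. Slc7a11, the cystine import subunit, read 0.839 and 0.973 before and 3.20 and 1.86 after and was not called (adjusted p = 0.0819). Slc1a4 was the only transporter that stayed called without 8 h replicate 2.

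Of 18 enzymes of amino acid and one-carbon synthesis tested, 7 rose and 0 fell, with a median of 0.70. Asns, asparagine synthetase, was called on both of its probe sets but with very different sizes. Its first probe set read 1.01 and 1.24 before and 2.18 and 3.12 after (2.36-fold, adjusted p = 0.0135), and its second read 0.816 and 1.04 before and 7.13 and 10.1 after (9.26-fold, adjusted p = 0.000591). Psph, which makes serine, rose 2.79-fold from 1.02 and 1.28 to 2.98 and 3.42 (adjusted p = 0.00442). Gch1, the entry enzyme of tetrahydrobiopterin synthesis, rose 7.08-fold, from 3.09 and 5.06 through 16.1 and 18.3 at 4 h to 28.1 and 29.6 at 8 h. Aldh18a1, Shmt2, Bcat1 and Shmt1 also rose. The first Asns probe set lost its call without untreated replicate 1 or 8 h replicate 2, while Psph, Gch1 and the second Asns probe set kept theirs without any 1 array.

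The promoters of these genes were searched for the composite element bound by C/EBP and ATF factors together, written TGATGNAAN, on both strands, from 250 bases before to 50 bases after each RefSeq start (mouse genome GRCm38.p6). The element was found for 29 of the 437 genes that rose and have a window (6.64%), for 2 of 208 that fell (0.962%), for 196 of 6576 genes on the array (2.98%) and for 1215 of 27025 genes in the whole table (4.5%). Among the groups above it was present in 5 of the 10 risers with a window among the synthetases and in 2 of 8 among the transcription factors. The stretches below surround the element upstream of the start of 6 genes that rose. They are written 5′ to 3′ along the gene's strand, with the match in capitals; the reverse complement of the element is shown where the match lies on the other strand. They were picked because they hold the element, so its recurrence among them is not a result. Of the 60 named risers with a window, 10 hold it (16.7%).
Atf3, chr1:191183406-191183474, minus strand: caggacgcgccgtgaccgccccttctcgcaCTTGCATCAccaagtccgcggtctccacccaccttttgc
Nupr1, chr7:126625543-126625611, minus strand: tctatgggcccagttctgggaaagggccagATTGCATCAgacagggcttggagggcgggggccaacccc
Asns, chr6:7693210-7693262, minus strand: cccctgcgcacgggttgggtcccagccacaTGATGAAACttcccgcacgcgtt
Tars, chr15:11399659-11399704, minus strand: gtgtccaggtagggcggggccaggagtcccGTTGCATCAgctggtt
Herpud1, chr8:94386286-94386354, plus strand: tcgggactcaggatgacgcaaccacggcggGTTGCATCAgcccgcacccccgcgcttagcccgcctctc
Cnpy2, chr10:128322308-128322376, plus strand: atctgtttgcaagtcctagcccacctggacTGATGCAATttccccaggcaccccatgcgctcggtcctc
A match is a description of the sequence and not a shown binding site. The letters of the element are not in the windows of Ddit3, Ppp1r15a, Gadd45a, Gch1 or Car6. Sequence farther than 250 bases before the start was not searched, so an element there would be missed. The second motif searched, the ER stress element, was found for 2 of 437 genes that rose (0.458%), for 1 of 208 that fell (0.481%) and for 12 of 6576 on the array (0.182%). Among 60 named risers it was found for 1, Ero1b.

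Genes of ER folding mostly did not pass the test, with a few exceptions. Of 28 chaperones and folding enzymes tested, 4 rose, 1 fell and 23 were not called, and the median log2 change was -0.09. Over all probe sets tested, 4.93% were called higher and 2.63% lower. Hspa5, the main ER chaperone BiP, read 0.801 and 1.03 before and 1.04 and 1.44 after, a change of 0.35 ± 0.18 that was not called (adjusted p = 0.312). The 4 that rose were Ero1a, Dnajb9, Ero1b and Cnpy2, and the member that fell was Fkbp7, a prolyl isomerase (1.84-fold lower, adjusted p = 0.0368). Ero1a, the oxidase that drives disulfide formation, rose 4.26-fold, from 0.835 and 0.871 through 2.45 and 2.10 at 4 h to 3.59 and 3.68 at 8 h (adjusted p = 0.000907). Its relative Ero1b rose 3.97-fold, from 0.404 and 0.323 to 1.43 and 1.46. Dnajb9, a co-chaperone of BiP, rose 3.45-fold from 0.755 and 0.466 to 2.30 and 1.92 (adjusted p = 0.0138) but kept its call only without untreated replicate 1.

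Of 28 genes of ER-associated degradation and translocation tested, 1 rose and 1 fell, with a median of -0.09. These counts are close to the 4.93% and 2.63% called over all probe sets. The riser, Herpud1, an ER membrane protein of the degradation machinery, read 1.16 and 1.43 before, 4.99 and 5.32 at 4 h and 3.60 and 3.89 at 8 h (2.90-fold, adjusted p = 0.00465). Sec61b, a subunit of the translocation channel, fell 1.97-fold, and its call was lost whichever of the 4 arrays was left out. Among eIF2alpha, its kinases and the ER stress sensors, 2 of 7 tested rose. Xbp1, whose message is spliced by the sensor IRE1, rose 2.66-fold from 1.12 and 1.21 to 2.87 and 3.34 (adjusted p = 0.00625), and Atf6, an ER-anchored transcription factor, rose 2.91-fold from 1.42 and 1.03 to 3.03 and 4.09 (adjusted p = 0.0203). The call of Atf6 was lost without any 1 of the 4 arrays, and that of Xbp1 without 8 h replicate 2.

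Growth-factor and signal-responsive genes also moved. Of 21 immediate early genes tested, 4 rose and 0 fell, namely Fos, Egr1, Klf4 and Junb, with a list median of 0.14. Fos, a component of AP-1, read 1.02 and 1.06 before, 19.1 and 21.7 at 4 h and 7.66 and 9.18 at 8 h (8.09-fold at 8 h, adjusted p = 0.000538), while its other probe set changed by 0.29 without being called. Egr1, a zinc-finger factor, rose 5.57-fold from 0.864 and 0.747 to 4.06 and 4.91. Of 15 NF-kB genes, 2 rose and 1 fell. Nfkb2, the precursor of the p52 subunit, rose 2.53-fold from 3.20 and 3.54 to 7.77 and 9.29 (adjusted p = 0.00465), and Relb, its partner, rose 2.29-fold. Tnfaip3, an inhibitor of NF-kB signalling, read 4.16 and 4.58 before, 9.87 and 9.75 at 4 h and 1.69 and 0.312 at 8 h (adjusted p = 0.0397). The call of Relb was kept only without 8 h replicate 2 and that of Tnfaip3 only without 8 h replicate 1.

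Smaller sets held a few called rises each, beside 4.93% called higher over all probe sets. Of 14 CLK kinase and SR splicing genes, 2 rose: Clk4, a kinase of splicing factors, rose 4.14-fold from 1.19 and 0.961 to 4.16 and 4.73 (adjusted p = 0.00196), and Srsf6 rose 2.07-fold. Of 14 clock genes, 3 rose, among them Arntl, which encodes the clock activator BMAL1 (2.58-fold, from 1.27 and 1.15 to 3.10 and 3.14). Of 13 mitochondrial chaperones and proteases, 2 rose, namely Timm44 and Hspa9, both of the import motor, by 2.28-fold and 2.16-fold. Sqstm1, the autophagy receptor p62, rose 2.93-fold from 0.805 and 1.60 to 3.28 and 3.76 (adjusted p = 0.0161), 1 of 3 of 28 autophagy and lysosome genes that rose. Of these genes, Clk4 kept its call without any 1 array, Arntl and Timm44 lost theirs without 8 h replicate 2, Srsf6 and Hspa9 without untreated replicate 1 or 8 h replicate 2, and Sqstm1 kept its call only without untreated replicate 2.

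Several genes of the extracellular matrix fell and none rose. Of 37 tested, 13 fell, 0 rose and 24 were not called, and the median log2 change was -0.41. Col3a1, a fibrillar collagen chain, read 2.15 and 1.66 in untreated cells, 0.582 and 0.725 at 4 h and 0.299 and 0.234 at 8 h. The 3 groups of arrays did not overlap, and the change at 8 h was 7.14-fold downward (-2.06 ± 0.19, limma adjusted p = 0.00114), with both other Col3a1 probe sets called lower too. Col1a2 read 1.04 and 1.38, then 0.496 and 0.592, then 0.219 and 0.217 (5.55-fold lower, adjusted p = 0.00174). Its other probe set changed by -0.22 and was not called.

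Lox, the enzyme that crosslinks collagen, read 0.942 and 1.06 before and 0.145 and 0.117 after (7.64-fold lower, adjusted p = 0.000828). Sparc, a collagen-binding glycoprotein, read 1.77 and 1.99 before and 0.385 and 0.380 after (4.91-fold lower, adjusted p = 0.00153). Fmod, a small proteoglycan that binds collagen fibrils, fell most in the list, from 8.51 and 12.8 to 0.999 and 0.751 (12.2-fold lower), although its other probe set changed by 0.51 without a call. The remaining calls were Col8a1, Col6a2, Col1a1, Thbs2, Col6a3, Col6a1, Fbln1 and Col5a1. Ogn, another small proteoglycan and outside the list, read 3.72 and 2.63 before and 0.140 and 0.0626 after, both probe sets being called. Of the 13 calls, 8 remained without untreated replicate 1, 9 without untreated replicate 2, 7 without 8 h replicate 1 and 6 without 8 h replicate 2, and Col3a1, Col1a2, Lox, Sparc and Fmod kept theirs each time.

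Several secreted signals fell in the same comparison. Of 44 chemokine, cytokine and growth factor genes tested, 13 fell and 0 rose, with a median of -0.41. These counts depend on the probe set taken for each gene. With the probe set of the highest mean over the 12 arrays fitted, 12 fell and 1 rose. Ccl7, a monocyte-attracting chemokine, read 16.9 and 24.8 before, 10.6 and 15.5 at 4 h and 1.38 and 1.82 at 8 h (a change of -3.50 ± 0.34, adjusted p = 0.00143). Ccl2, a chemokine of the same kind, read 9.24 and 13.5, then 7.13 and 9.07, then 1.63 and 2.65 (5.30-fold lower, adjusted p = 0.00607). For both genes the 8 h arrays lay below all 4 of the others.

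Ccn1 and Ccn2, matricellular proteins that respond to cell spreading and TGF-beta, both fell, by 1.74 ± 0.20 and 1.80 ± 0.21 on the log2 scale. Ccn1 read 2.24 and 2.17 before, 2.00 and 2.17 at 4 h and 0.599 and 0.391 at 8 h, and Ccn2 read 1.18 and 1.25, then 0.986 and 0.991, then 0.202 and 0.144. Tgfb2, a TGF-beta ligand, read 1.66 and 1.97, then 1.95 and 2.36, then 0.420 and 0.570 (3.67-fold lower, adjusted p = 0.00211). The other members that fell were Ccn3, Cx3cl1, Cxcl5, Inhba, Cxcl12, Cxcl1, Fgf7 and Tgfb3. Outside the list, Fst, the activin inhibitor follistatin, fell 7.19-fold from 7.59 and 11.7 to 1.25 and 1.44, and Vegfd, a lymphatic growth factor, fell 11.3-fold from 2.92 and 2.94 to 0.377 and 0.144. Vegfa, by contrast, was not called and its groups overlapped, with 3.43 and 2.67 before and 5.41 and 2.95 after. Of the 13 calls in the list, 7 remained without untreated replicate 1, 9 without untreated replicate 2, 9 without 8 h replicate 1 and 7 without 8 h replicate 2; Ccl7, Ccl2, Ccn1, Ccn2, Tgfb2 and Inhba kept theirs each time.

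**Figure D3:**
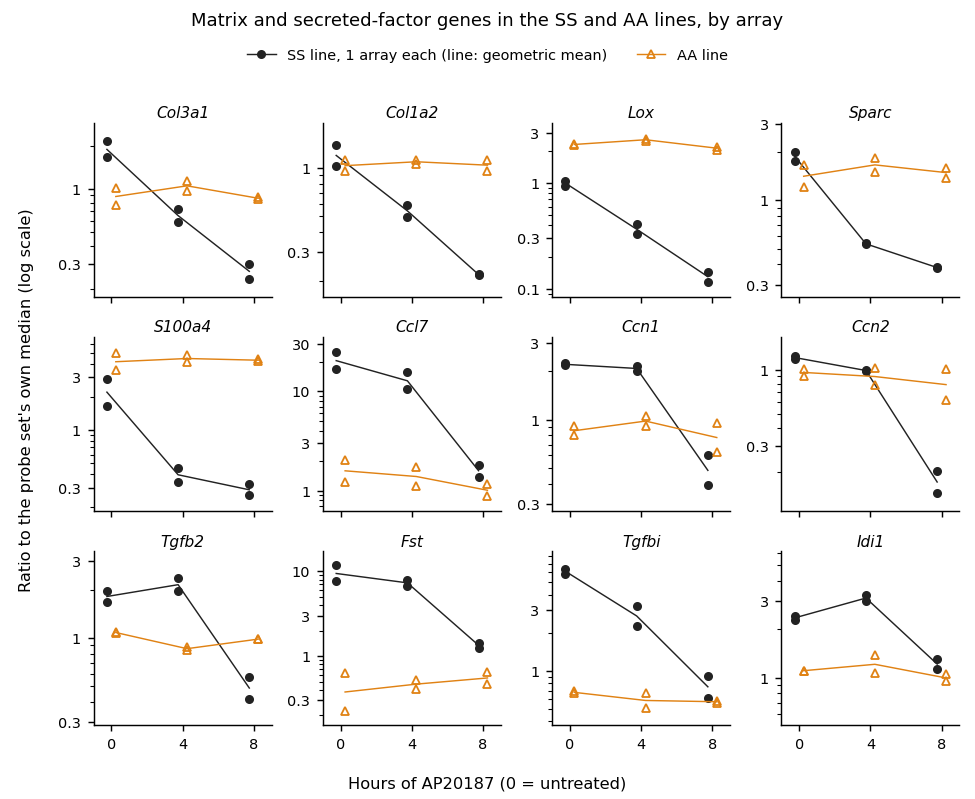
Ratios on each array (log scale) against hours of AP20187 for 12 genes, mostly of matrix and secreted factors; filled circles are SS arrays, open triangles are AA arrays, and lines join the geometric means of the 2 arrays. Col3a1 was already at 0.582 and 0.725 at 4 h in the SS line, whereas Ccn1 read 2.00 and 2.17 at 4 h and 0.599 and 0.391 at 8 h.

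The markers that define fibroblasts overlap with the matrix genes. Of 17 markers tested, 9 fell and 1, Ddr2, rose, with a median of -0.67. Of those 9, 6 (Col3a1, Sparc, Col1a2, Col1a1, Col6a1 and Col5a1) also stand in the matrix list. After quantile normalization 8 markers fell and 0 rose, so the call of Ddr2 was lost. With 1 SS array left out the list median lay between -0.73 and -0.60. S100a4, a calcium-binding protein of motile fibroblasts, read 1.67 and 2.92 before and 0.257 and 0.323 after (7.91-fold lower, adjusted p = 0.00315). Thy1 and Pdgfra, surface markers of fibroblasts, fell 2.88-fold and 2.64-fold. No marker of another cell type was called higher: 0 of 14 epithelial, 0 of 10 endothelial, 0 of 10 adipocyte and 0 of 14 leukocyte markers. Their list medians were -0.09, -0.11, 0.00 and -0.21, and 1 leukocyte marker, Cd14, was called lower. Over all probe sets 4.93% were called higher, so 0 calls in lists of 10 or 14 genes is close to that share. The marker values are relative, so how much of any cell type the cultures held cannot be read from them. Fewer cells of a type also cannot be told apart from less RNA per cell.

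The contractile genes, which mark myofibroblasts and smooth muscle, had a median of -0.63. Of 14 tested, 3 fell (Cnn1, Cnn2 and Myl9, which regulate or form part of actin-myosin bundles) and 0 rose. These calls were lost when untreated replicate 1, untreated replicate 2 or 8 h replicate 2 was left out. Of 17 matrix proteases and inhibitors, 3 fell, namely Timp2, Mmp14 and Mmp11, with a median of -0.13, and 0 of these calls remained without untreated replicate 2 or without 8 h replicate 2.

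**Figure D4:**
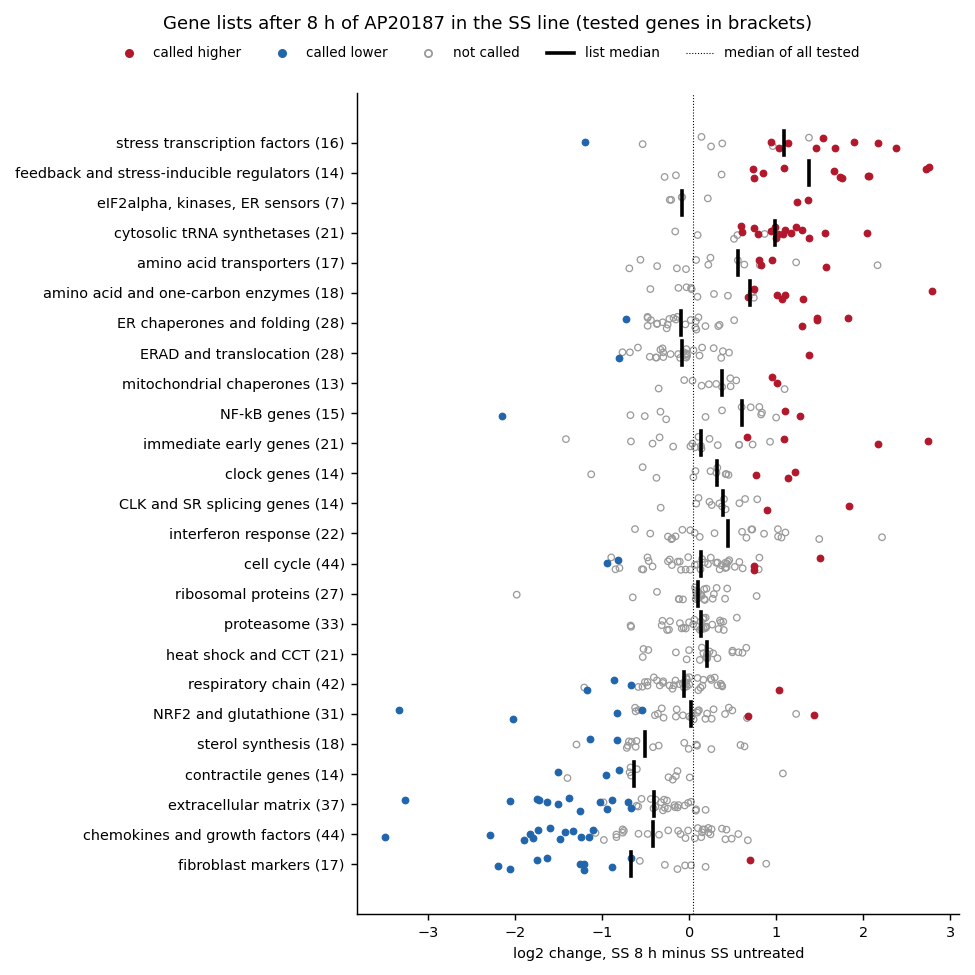
Each point is a tested gene of the named list, placed by its log2 change between untreated and 8 h arrays of the SS line; red and blue points are called higher and lower, open points are not called, black bars are list medians and the dotted line is the median of all tested probe sets, 0.04. The feedback regulators lie farthest to the right with a median of 1.38 and the fibroblast markers farthest to the left with -0.67.

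A few members of each lipid and antioxidant list were called. Of 18 sterol genes, 2 fell, Nsdhl and Idi1, and the list median was -0.51. The change was above 0 for 5 of the 18. In limma's test 9 had an unadjusted p under 0.05 in either direction, which 22.3% of all probe sets passed. With 1 SS array left out the sterol median lay between -0.40 and -0.25. Idi1, an enzyme of isoprenoid synthesis, read 2.30 and 2.42 before, 3.01 and 3.26 at 4 h and 1.14 and 1.30 at 8 h (1.93-fold lower at 8 h, adjusted p = 0.0158), a call lost without any 1 of the 4 arrays. Of 13 fatty acid genes, Scd2 and Elovl6 fell and Pnpla2, a triglyceride lipase, rose. Scd2, a desaturase, read 1.03 and 1.48 before and 0.305 and 0.429 after (3.42-fold lower, adjusted p = 0.00799). Of 31 antioxidant and glutathione genes, Sqstm1 and Hmox1 rose while Gsta4, Gstm2, Nqo1 and Gsr fell, with a median of 0.02. Hmox1, heme oxygenase, rose 1.67-fold from 1.72 and 2.22 to 3.25 and 3.33 (adjusted p = 0.0337). The call of Hmox1 was lost when untreated replicate 1, 8 h replicate 1 or 8 h replicate 2 was left out. Without 8 h replicate 1, without 8 h replicate 2 or without untreated replicate 2, 0 of the 4 falls of the antioxidant list remained called.

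Of 44 cell cycle genes tested, 3 rose and 2 fell, with a median of 0.14, close to the 4.93% and 2.63% called over all probe sets. Ccnd2 read 1.80 and 2.33 before, 2.28 and 2.00 at 4 h and 6.25 and 6.22 at 8 h (3.02-fold higher, adjusted p = 0.00311). Ccnd1, the main D cyclin of growth factor signalling in fibroblasts, read 1.59 and 1.77 before and 1.01 and 0.710 after (1.96-fold lower, adjusted p = 0.0309), a call kept only without 8 h replicate 1. Cdkn2c, an inhibitor of D cyclin kinases, fell 2.19-fold, a call lost without 8 h replicate 1. Of 21 glycolysis genes, Eno2, an enolase, rose 4.11-fold from 0.995 and 0.660 to 3.32 and 3.48 and Ldhb fell. The calls of this list and of the respiratory chain genes below stand beside 4.93% higher and 2.63% lower over all probe sets. Of 42 respiratory chain genes, 1 rose (Cox8a) and 3 fell (Uqcrh, Cox7b and Uqcrb), and 0 of these 3 falls remained without any 1 of untreated replicate 2, 8 h replicate 1 or 8 h replicate 2.

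Several groups had no called member. In limma's test these were the interferon response genes (0 of 22), apoptosis regulators (0 of 17), cytosolic ribosomal proteins (0 of 27), heat shock proteins and CCT subunits (0 of 21) and proteasome subunits (0 of 33), with medians of 0.45, 0.01, 0.11, 0.20 and 0.13 and with 5, 3, 2, 4 and 2 genes at an unadjusted p under 0.05, a threshold passed by 22.3% of all probe sets tested. Of these 5 medians, 4 changed sign when 1 array was left out. The interferon median was -0.024 without 8 h replicate 2, and without untreated replicate 1 the ribosomal, apoptosis and proteasome medians were -0.16, -0.11 and -0.074, while that of the heat shock list was 0.04. Of 31 initiation and elongation genes, Eif4ebp1 was the single call. In the interferon list the arrays of each group differed, with replicate 2 above replicate 1 for 20 of 22 genes in untreated cells and 21 of 22 at 8 h. Irf7, a transcription factor of that response, read 0.156 and 0.463 before and 0.764 and 2.00 after (adjusted p = 0.0652), and with the replicate block 5 of the 22 genes were called higher. The part of this difference between replicates in other results was not tested.

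The 8 h arrays were then compared directly with the 4 h arrays of the same line. At an adjusted p under 0.05, 63 probe sets differed (0.509% of those tested), 23 higher and 40 lower at 8 h. Among the higher ones, Mef2b went from 4.72 and 6.29 at 4 h to 25.7 and 36.8 at 8 h (2.44 ± 0.28, adjusted p = 0.0291), and Itpr2 from 1.77 and 1.86 to 4.12 and 4.90 on 1 of its 4 probe sets (1.20 ± 0.18, adjusted p = 0.0378). Ccnd2 was higher at 8 h by 1.44 ± 0.18. Upp1, uridine phosphorylase, read 2.00 and 2.06 at 4 h and 13.3 and 28.5 at 8 h against 4.67 and 3.99 untreated. Ido1, a tryptophan-degrading enzyme, read 3.95 and 5.76 in untreated cells, then 0.711 and 0.651, then 4.84 and 5.95, so its 8 h and untreated arrays overlapped and the 4 h arrays stood below both.

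Of the genes lower at 8 h than at 4 h, 7 belonged to the chemokine and growth factor list, among them Ccl7 (-2.83 ± 0.34), Tgfb2 (-1.70 ± 0.16), Ccn1 (-1.66 ± 0.20) and Ccn2 (-1.56 ± 0.21). Outside that list, Fst was lower by -2.25, Tgfbi by -1.57, Vegfd by -1.88 and Cpxm1 by -2.94, while the other Tgfbi probe set, not called, had a change of 1.23 from untreated cells. The matrix list had 0 such calls in the direct comparison, with 10 of 37 genes at an unadjusted p under 0.05, although 8 of its genes were called lower at 4 h and 13 at 8 h against the shared untreated arrays. Of the immediate early genes 3 were lower at 8 h, Fos by -1.25 ± 0.18. Gadd45b, a growth arrest gene, read 1.26 and 1.37 in untreated cells, then 5.40 and 5.73, then 2.12 and 2.61, and differed between 4 h and 8 h (adjusted p = 0.0291). Of the synthetases, transporters and stress transcription factors, 0 passed the test between 4 h and 8 h, with 13 of 21, 0 of 17 and 5 of 16 at an unadjusted p under 0.05, which 14.6% of all probe sets passed; the synthetase median was 0.61 higher at 8 h. When any 1 of the 4 arrays was left out, no probe set was called over the whole array, with 1013 to 1664 at an unadjusted p under 0.05. With the replicate block there were 0 calls and 2114 at that unadjusted p.

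Whether the 8 h response needed a phosphorylatable eIF2alpha was addressed with the AA line. In AA cells 0 probe sets were called after 8 h, with 846 at an unadjusted p under 0.05. The 2 AA 8 h arrays had the lowest correlation of the 6 groups (r = 0.690). The response differed between SS and AA for 258 probe sets (2.08% of those tested), 174 with the SS change higher and 84 with it lower. They included 170 of the 610 probe sets called higher in SS and 71 of the 326 called lower, and 0 of the SS calls had a called difference in the opposite direction. The difference contains the same SS change, so these counts are not an independent check of the SS calls.

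Car6 had the largest difference among genes, 5.12 ± 0.81 (adjusted p = 0.0250), with AA ratios of 1.01 and 1.13 untreated and 1.30 and 1.83 at 8 h. For Ppp1r15a the AA arrays read 0.988 and 1.11 untreated and 1.01 and 1.11 at 8 h, and the difference was 2.71 ± 0.25 (adjusted p = 0.00565). For Ddit3 the AA arrays read 0.927 and 1.30, then 0.816 and 1.08 (difference 2.56 ± 0.28, adjusted p = 0.00972). Gadd45a, Fos, Gch1, Trib3, Atf3, Herpud1 and Xbp1 also differed. Among lists the difference was called for 6 of 16 stress transcription factors, 6 of 14 feedback regulators and 7 of 21 synthetases, all with the SS change higher, and for 6 of 37 matrix genes and 7 of 44 chemokine and growth factor genes, all with the SS change lower. The median difference was 0.93 for the synthetases and -0.53 for the matrix genes, beside 0.01 over all probe sets.

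The difference for Atf4 mRNA was 0.80 ± 0.22 and was not called (adjusted p = 0.104), nor was that for Hspa5 (0.61 ± 0.26, adjusted p = 0.251). Among the lower calls, Col3a1 fell in SS while the AA arrays read 0.767 and 1.02 untreated and 0.874 and 0.845 at 8 h (difference -2.03 ± 0.27, adjusted p = 0.0133). Stac and Camk2b had the most negative differences, but there the AA arrays also moved: Stac read 0.457 and 0.448 untreated and 2.16 and 5.36 at 8 h in AA, and Camk2b 1.03 and 1.15 and then 3.47 and 8.42. The count of 258 fell to between 21 and 80 when any 1 array other than AA 8 h replicate 1 was left out (21 without AA untreated replicate 1, 80 without AA 8 h replicate 2), and was 515 without AA 8 h replicate 1. Line, clone and any unstated difference in PERK background cannot be told apart from the eIF2alpha genotype here.

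**Figure D5:**
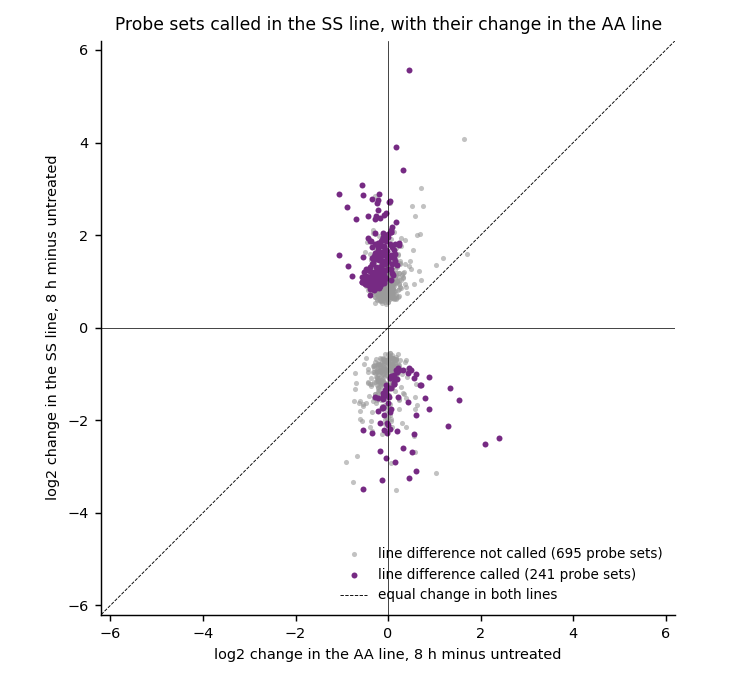
Each point is a probe set called after 8 h in the SS line, with its log2 change in the AA line on the x axis and in the SS line on the y axis. Purple points are those whose change differed between the lines, 170 above and 71 below 0 in the SS line; most points lie near 0 on the x axis.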

How the data were processed

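RNA of 24 mouse fibroblast samples had been hybridised to 1-colour arrays, and the table deposited by the authors holds a linear ratio for each probe set and array. The scaling is not given in the sources used here; 91.5% of the probe sets have a median within 0.01 of 1 over the 24 arrays, and the lowest value is 0.01, taken as a floor. Depth does not apply to arrays, and their number limits the precision. From the 12488 deposited probe sets, 66 controls were left out, and of the remaining 12422 a total of 12384 were tested, 38 being at the floor on at least 1 of the 12 arrays fitted. Of the 12422, 10833 have 1 gene symbol, 396 several and 1193 none; 10817 matched RefSeq by Entrez identifier and 0 symbols changed.

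Ratios were fitted as log2(ratio + 0.247) with limma 3.58.1 (R 4.3.3, with version 1.17.8 of the data.table package), with a group term over the 12 Fv2E-PERK arrays, a variance trend and Benjamini-Hochberg adjustment over all tested probe sets. The residual degrees of freedom were 6. The scripts were tested on simulated data. Named genes were the 20 largest called rises and falls, up to 5 members per list, the 5 largest differences each way from 4 h and from AA, and a set of stress response genes always given; other members are named with their list. A list uses 1 probe set a gene. The members and lists were chosen with earlier results of these data known. Same-numbered replicates of untreated and 8 h SS arrays correlated in their deviations with r = 0.0555, so the numbers were not taken to pair the samples. Alternatives covered the pseudocount, filters, scaling, the arrays in the fit, the variance prior, a replicate block and leaving out each array. Promoter sequences are those of RefSeq on GRCm38.p6.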

Additional observations from a re-analysis of the deposited data

Results flagged for a closer look

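The change after 8 h differed between the SS and AA lines, by a direct test of the difference in limma, for 258 probe sets. Among the named genes with a larger rise in SS, the difference on the log2 scale was 5.12 for Car6, 3.65 for B4galnt2, 3.49 for Tfcp2l1, 3.41 for Usp17la and 3.14 for Gch1. It was 2.71 for Ppp1r15a, 2.56 for Ddit3, 2.00 for Trib3, 1.72 for Herpud1, 1.66 for Xbp1 and 1.55 for Atf3. In the other direction it was -4.78 for Stac, -4.59 for Camk2b, -3.70 for Fmod, -3.70 for Mt4 and -3.41 for Slc6a4. For Stac and Camk2b the AA arrays at 8 h lay above the untreated AA arrays, at 2.16 and 5.36 for Stac and at 3.47 and 8.42 for Camk2b.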

How the results depend on the processing

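The 936 calls between untreated and 8 h arrays became 623 after quantile normalization, 330 with the SS arrays only and 0 with only the groups compared, and ranged from 164 to 447 with 1 array left out. The other planned settings gave 900 to 1254, and subtracting array medians turned the split of 610 higher and 326 lower into 574 and 394. The 63 calls between 8 h and 4 h became 130 with the median as pseudocount, 303 with probe sets never at the floor, 38 after quantile normalization, 163 with all 24 arrays, 3 with the SS arrays only and 0 with only the groups compared. With 1 array left out they were 0 each time. The 258 differences between SS and AA became 647 with probe sets never at the floor, 154 after quantile normalization, 394 with all 24 arrays and 16 with only the groups compared, and ranged from 21 to 515 with 1 array left out. With a replicate block the 3 counts were 995, 0 and 139. Leaving out AA 8 h replicate 2, a setting added after the data were seen for the counts that do not use that group, gave 1012 and 50. The cause of these shifts was not tested.

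Of 130 named calls, 54 held without each of the 4 arrays in turn and 30 were lost every time; 74 were lost without SS 8 h replicate 2, 25 after quantile normalization and 16 with the replicate block. No named probe set changed sign while called. With 1 SS array left out, 11 of 35 list medians changed sign. For 7 the shift was within the median standard error of the genes: ER chaperones reached 0.017, antioxidant genes -0.22, apoptosis -0.11, respiratory chain 0.012, proteasome -0.074, autophagy -0.044 and adipocyte markers -0.15. For the other 4 it was larger. The median of the eIF2alpha kinases and sensors was -0.082 in the main fit. With 1 SS array left out it ranged from -0.052 (without 8 h replicate 2) to 0.16 (without untreated replicate 1). It was 0.13 without untreated replicate 2. That of glycolysis ranged from -0.34 to 0.048 (the latter without untreated replicate 2). The ribosomal median ranged from -0.16 (without untreated replicate 1) to 0.40, and the interferon median from -0.024 (without 8 h replicate 2) to 0.83. The 33 probe sets at the floor on an SS array have no measured order there.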

Other observations

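The sets in this section were chosen after their values were seen, so their counts support nothing by themselves. Genes that host small nucleolar RNAs in their introns were among the rises: of 12 probe sets for 7 such genes, 6 were called higher, covering Taf1d, Snhg1, Snhg5, Gas5 and Epb41l4aos, and 0 lower. Snhg1 read 1.28 and 0.926 in untreated SS cells, 3.23 and 2.80 at 4 h and 2.83 and 3.75 at 8 h, so the untreated arrays lay below all the others. Another 2 probe sets for Gas5 were not called, and 1 of them changed by -0.40. A further probe set for Taf1d (1.51) was not called either. No probe set was called for Snhg6 (changes of 0.77 and -0.16) or Snhg11 (-0.41).

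Of 6 probe sets for the classical MHC class I genes H2-D1 and H2-K1, which present peptides to T cells, 5 were called higher. These genes share near-identical sequence, and their probe sets are not independent measures. Replicate 2 lay above replicate 1 for 5 of the 6 at 8 h and for 5 of the 6 in untreated cells; the part of this in the result was not tested.

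The largest called rise among probe sets without a gene symbol here read 0.783 and 0.677 in untreated cells, 5.69 and 6.96 at 4 h and 12.8 and 15.9 at 8 h, a change of 3.90 ± 0.19 (SE, n = 2 arrays per group; limma adjusted p = 0.000214).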
